A study of Mus musculus with 14 samples.

Results

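The cGAS-STING pathway was followed through 10 genes in splenocytes of 7 WT mice and 7 Sting gt/gt mice. These genes are Sting1, Cgas, Tbk1, Ikbke, Irf3, Trex1, Ddx41, Samhd1, Enpp1 and Ifi204, and they were found by matching the transcript accession of each array probe to RefSeq names. They are 10 of 24908 genes or unnamed transcripts tested, and they are read by 17 probes. All mice were C57BL/6, were 10 to 14 weeks old when immunized and had received chick collagen type II (CII) in complete Freund's adjuvant (CFA) 2 weeks before the spleen was taken. The Sting gt/gt mice carry the golden ticket allele, made by ENU mutagenesis, on both chromosomes, and the WT mice carry none. The mutant mice were a gift of another laboratory while the WT mice were purchased, so that other differences between the 2 stocks and the allele cannot be told apart. No mice without CFA and CII were analysed here. RNA of each mouse was read on 1 one-colour Agilent array.

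In this pathway cGAS binds DNA in the cytosol and makes the messenger cGAMP, which binds STING on the endoplasmic reticulum. STING then moves to the Golgi and recruits the kinase TBK1, with IKKε (Ikbke) as its close relative, and the kinase activates the transcription factor IRF3, which induces type I interferon. Trex1 and Samhd1 limit the pathway by degrading DNA and by removing the building blocks of DNA, Enpp1 hydrolyses cGAMP outside the cell, and Ddx41 and Ifi204 have been described as further sensors of DNA. Most of these steps are switched by binding and phosphorylation of proteins, which arrays do not read.

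Values are log2 signals with the 75th percentile of each array set to 0, and each gene was read from its brightest tested probe, called probe 1. Levels are compared only within a probe. Replicates 1 to 3 of both genotypes were scanned on one day (scan day 1) and replicates 4 to 7 on another (scan day 2). On scan day 2 the 4 Sting gt/gt arrays shared 1 slide and the WT arrays lay on 2 others, so slide and genotype cannot be told apart there. Of the 17 probes, 15 were well above background on all 14 arrays and none was saturated. One probe of Ddx41 was well above background on 13 arrays, and a second probe of Ikbke, for a predicted transcript, was well above background on 0 arrays and was not tested.

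The genotypes could not be parted by any of the 10 genes over the 14 arrays. By limma, 0 of the 10 passed an unadjusted p under 0.05, where 3.54% of all genes did, and 0 of the 16 tested probes passed, where 3.46% of all probes did. The adjusted p was 0.999 for each of the 10, and over all genes 1 transcript passed the adjustment, which is 0.00401%. In the direction of the point values, 7 of the 10 were higher and 3 lower in the mutants, and the median of the 10 was 0.05 against 0.02 over all genes. The signs of most of them changed with the slide, the scaling or a single mouse.

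**Figure D1:**
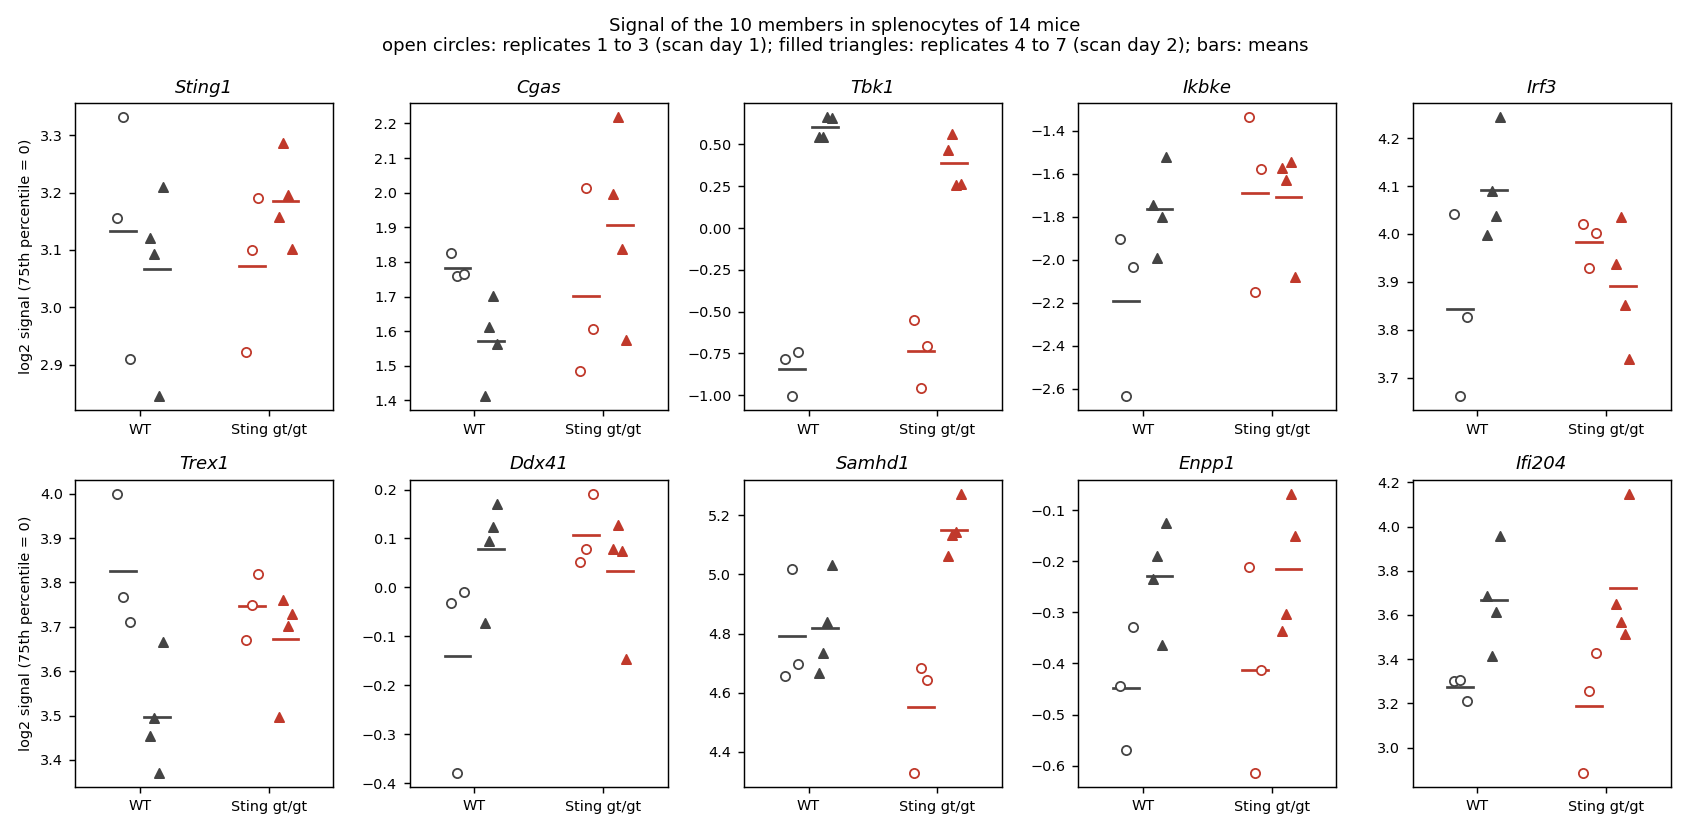
Log2 signal (y axis, 75th percentile of each array = 0, a separate scale for each gene) of the 10 genes in 7 WT and 7 Sting gt/gt mice (x axis). Open circles are replicates 1 to 3 of scan day 1, filled triangles are replicates 4 to 7 of scan day 2, and bars are means, and in Tbk1 the scan days stand apart in both genotypes while the genotypes overlap in each of the 10 genes.

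Sting1, which encodes the sensor that the allele disables, was read by 1 probe. Its log2 signal ran from 2.85 to 3.33 among WT animals (median 3.12) and from 2.92 to 3.29 among mutants (median 3.16). The ranges overlapped almost entirely, and 4 of 7 Sting gt/gt mice lay above the WT median. The log2 fold change was 0.04 (standard error 0.10, 95% interval -0.16 to 0.25), and the two-sided exact permutation test, which used each of the 3432 partitions of the arrays, gave p = 0.602. The interval corresponds to 0.892 to 1.19 times the WT level in the fit without slides. With slide as a fixed term the value was -0.10 (standard error 0.16), which rests on 5 arrays of scan day 1 alone and is no check of slides on scan day 2. The golden ticket allele is a point mutation that need not alter the RNA level, so the probe does not check the genotype labels.

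Cgas makes cGAMP. Its log2 signal ran from 1.41 to 1.83 among WT animals (median 1.70) and from 1.48 to 2.22 among mutants (median 1.84). The highest 3 values came from Sting gt/gt replicates 5, 2 and 4, and the lowest was WT replicate 4. Over all mice the log2 fold change was 0.16 (standard error 0.12, 95% interval -0.11 to 0.42, exact permutation p = 0.204). A second probe of Cgas gave -0.0050 (standard error 0.19).

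Tbk1 is the kinase that STING recruits. Its log2 signal ran from -1.005 to 0.66 among WT animals (median 0.54) and from -0.96 to 0.56 among mutants (median 0.26), which is the widest spread among the 10 genes. The spread followed the scan day. On scan day 1 the 6 mice lay between -1.005 and -0.55, and on scan day 2 the 8 mice lay between 0.26 and 0.66, so the days did not overlap in either genotype. The genotype difference was -0.08 (standard error 0.34), with a 95% interval of -0.80 to 0.65 that is wide because the scan day enters the error. With scan day as a term, and still without slides, the difference was the same and its standard error was 0.095. Ikbke, the related kinase, was dim, with log2 signals from -2.63 to -1.52 among WT animals (median -1.90) and from -2.15 to -1.34 among mutants (median -1.58). Its log2 fold change of 0.25 (standard error 0.17, 95% interval -0.11 to 0.61, exact permutation p = 0.178) was the largest of the 10 in the fit reported and remained within the spread between mice. It fell to 0.13 without WT replicate 2 and to 0.16 under another background correction (normexp), and Cgas was larger in both cases. Cgas was also larger without Sting gt/gt replicate 1 (0.21 against 0.19). Under array weights and a trend on intensity both Cgas (0.28) and Samhd1 (0.23) exceeded Ikbke (0.22). Irf3, the transcription factor at the end of the cascade, ran from 3.66 to 4.24 among WT animals (median 4.04) and from 3.74 to 4.04 among mutants (median 3.94). Its log2 fold change was -0.05 (standard error 0.10), and a second probe gave 0.08 (standard error 0.10), of the opposite sign.

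Among the genes that limit the pathway, Trex1, an exonuclease of the cytosol, ran from 3.37 to 3.999 among WT animals (median 3.67) and from 3.50 to 3.82 among mutants (median 3.73), and its difference was 0.07 (standard error 0.11). Samhd1, which hydrolyses deoxynucleotides, ran from 4.66 to 5.03 among WT animals (median 4.73) and from 4.33 to 5.27 among mutants (median 5.06). The Sting gt/gt values fell on both sides of the WT values, and the log2 fold change was 0.09 (standard error 0.15, exact permutation p = 0.542). Enpp1, the hydrolase of cGAMP, ran from -0.57 to -0.13 among WT animals (median -0.33) and from -0.61 to -0.07 among mutants (median -0.30), a difference of 0.02 (standard error 0.10). Ddx41, a helicase, ran from -0.38 to 0.17 among WT animals (median -0.00997) and from -0.15 to 0.19 among mutants (median 0.08). Probe 1 differed by 0.08 (standard error 0.10), and the other probes gave 0.17 and 0.33 (standard errors 0.20 and 0.25). Ifi204, an interferon-inducible sensor, ran from 3.21 to 3.96 among WT animals (median 3.41) and from 2.88 to 4.15 among mutants (median 3.51), and the difference was -0.0062 (standard error 0.17). In cells from a whole spleen, a lower signal from fewer cells that express a gene and from less RNA per cell cannot be told apart.

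**Figure D2:**
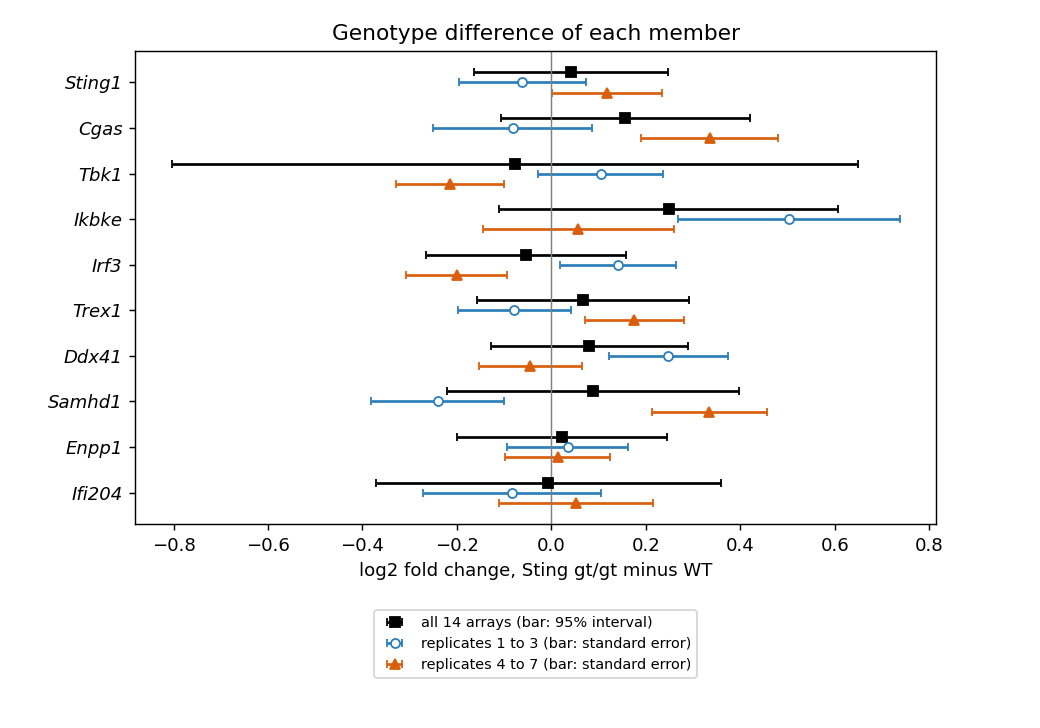
Log2 fold change, Sting gt/gt minus WT (x axis), of the 10 genes (y axis) over all 14 arrays with its 95% interval (black squares) and within replicates 1 to 3 (open blue circles) and replicates 4 to 7 (orange triangles) with standard errors. Each of the 10 intervals over all arrays spans 0, and for 8 of the genes the sign differs between the blocks of replicates.

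The rule also asked for the replicates apart, in 1 fit with a shared spread. Within replicates 1 to 3, 0 of the 10 genes passed an unadjusted p under 0.05, where 5.34% of all genes did. Ikbke came nearest, at 0.50 (standard error 0.23), and WT replicate 2 was the lowest of the 6 mice. Among probes, where 5.87% of all passed, 1 of the 16 did, the second probe of Ddx41, at 0.52 (standard error 0.20). Within replicates 4 to 7, 2 of the 10 passed, Cgas and Samhd1, where 22.7% of all genes did. Of the probes, 2 of the 16 passed against 21.4% of all probes, so the share among the 10 is near the background. Since 3 mice against 3 cannot give an exact p under 0.1 and 4 against 4 none under 0.0286, single genes are bounded by the design.

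On scan day 2 Cgas was 1.41, 1.61, 1.70 and 1.56 in WT replicates 4 to 7 and 1.997, 2.22, 1.84 and 1.58 in Sting gt/gt replicates 4 to 7. Of the 4 Sting gt/gt mice, 3 lay above each WT mouse, and the log2 fold change was 0.33 (standard error 0.15, exact permutation p = 0.0857). The second probe of Cgas gave 0.29 on that day and -0.40 on scan day 1. In the log2 table that the authors deposited, the value for probe 1 was 0.27 and narrowly failed to pass.

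Samhd1 was read by 3 probes, which did not move alike. On scan day 2 probe 1 was 4.66, 4.73, 4.84 and 5.03 in WT mice and 5.06, 5.13, 5.14 and 5.27 in Sting gt/gt mice, so that the groups did not overlap. The log2 fold change was 0.33 (standard error 0.12), and the exact permutation test gave p = 0.0286, the smallest that 4 against 4 allows. On scan day 1 the same probe was lower in the mutants, at -0.24 (standard error 0.14). The difference between the days was 0.57 (unadjusted limma p = 0.00851, exact permutation of genotypes within days p = 0.00429), but its adjusted p over all genes was 0.132. At an unadjusted p under 0.05, 18.4% of all genes differed between the days in this way, and at an adjusted p 0.486% did, none of them among the 10. The other probes of Samhd1, which were designed to another transcript of the gene, gave log2 fold changes of -0.00089 and 0.03 on scan day 2. In the deposited table probe 1 of Samhd1 gave 0.23 on that day and did not pass. In the same table Tbk1 (-0.28) and Irf3 (-0.29) passed an unadjusted p under 0.05 within replicates 4 to 7, which they did not with the scanner signal (-0.21 and -0.20).

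**Figure D3:**
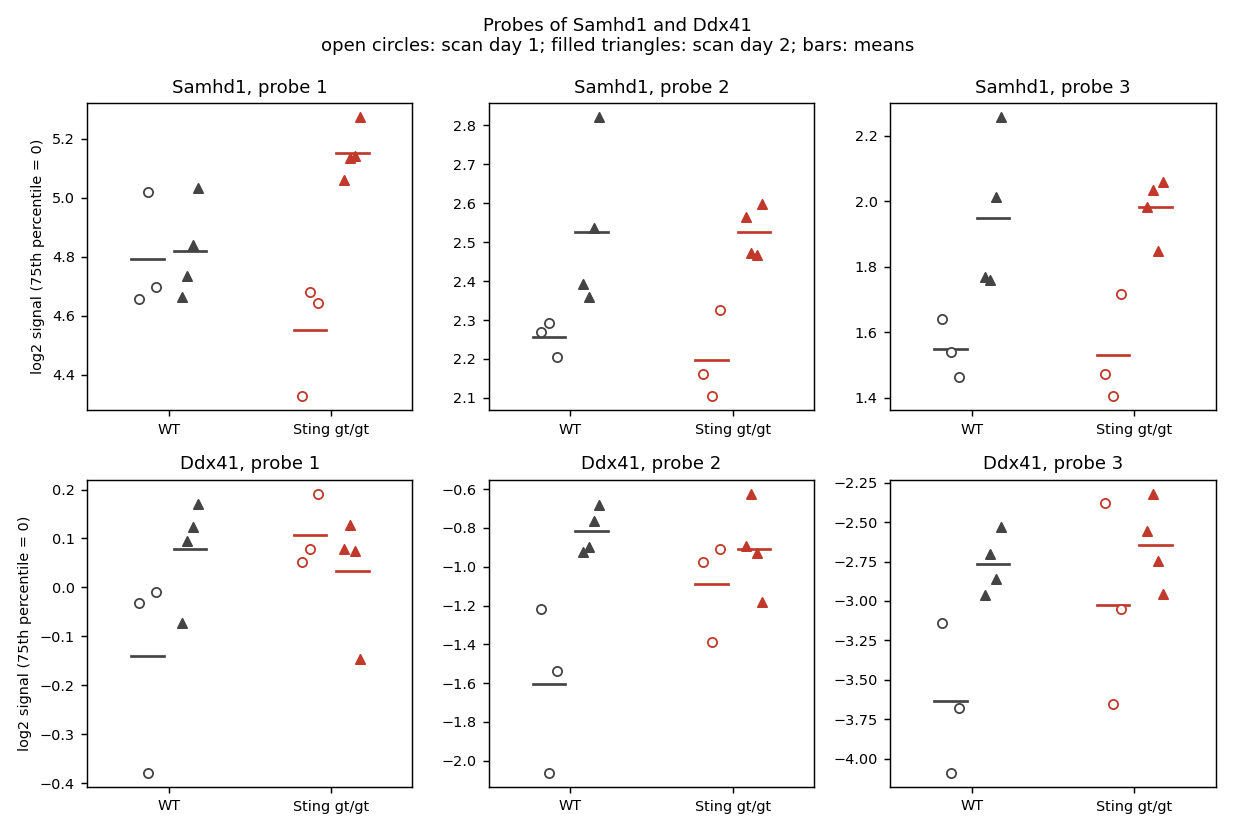
Log2 signal (y axis, 75th percentile of each array = 0, a separate scale for each panel) of the 3 probes of Samhd1 and the 3 probes of Ddx41 in WT and Sting gt/gt mice (x axis). Open circles are scan day 1, filled triangles scan day 2 and bars means, and only probe 1 of Samhd1 sets the genotypes of scan day 2 apart.

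The promoter of Samhd1 is shown since, by probe 1, its genotype difference changed most between the days among the 10. Promoter windows of 300 bases, from RefSeq with build GRCm38.p6, were found for 8 of the 10 genes, 9 windows in all, and not for Sting1 and Ifi204. Each was searched on both strands for 3 motifs of interferon and NF-kB signaling. The core of the interferon-stimulated response element, GAAANNGAA, was in 0 of the 9 windows and in 8.56% of all 32851 windows. The STAT motif TTCNNNGAA was in 1 of the 9, that of Samhd1, and in 8.30% of all, and the NF-kB core GGGNNTTCC was in 1 of the 9, that of Enpp1, and in 5.82% of all. In Samhd1 the STAT motif, in capitals, starts 235 bases before the gene start. The window is chr2:157135047-157135346, on the minus strand, and holds the start of the gene. A match is a description of letters and not of a binding site.
Samhd1: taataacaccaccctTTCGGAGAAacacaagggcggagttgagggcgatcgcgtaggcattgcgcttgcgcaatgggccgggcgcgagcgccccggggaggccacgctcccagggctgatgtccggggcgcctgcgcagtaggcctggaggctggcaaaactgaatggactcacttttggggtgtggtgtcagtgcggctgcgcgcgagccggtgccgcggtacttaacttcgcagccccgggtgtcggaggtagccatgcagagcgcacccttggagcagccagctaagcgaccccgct

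Some of the 10 genes differed between the scan days, which also differ in mice and slides. With both terms fitted, 3 of the 10 genes changed from replicates 1 to 3 to replicates 4 to 7 at an adjusted p under 0.05 by limma, where 38.8% of all genes did. Tbk1 was higher on scan day 2 by 1.28 in log2 (standard error 0.10, adjusted p = 3.0e-07), which is a 2.44-fold difference. Ifi204 was higher by 0.46 (standard error 0.12, adjusted p = 0.00845) and Samhd1 by 0.31 (standard error 0.12, adjusted p = 0.0497). The call of Samhd1 lies at the threshold and was lost with the 75th percentile taken over spots (0.30), and in the deposited table its value was 0.12. Of the probes, 7 of the 16 passed, where 39% of all probes did, among them all 3 of Samhd1 and 2 of Ddx41. Tbk1 was the 1 gene of the 10 whose scan days did not overlap, where 15.8% of all genes had such days. In the deposited log2 table the day difference of Tbk1 was 0.16, and 0 of all genes differed between the days at an adjusted p under 0.05. How that table was scaled, and whether it was adjusted between batches, is not given in the sources used here, so its lack of day differences does not tell the origin of the shift of Tbk1, which was not tested. The same holds for other values set against that table. The 75th percentile of the signal ran from 403 to 550 over the arrays.

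Some cell type markers moved between the genotypes on scan day 2, and the lists are given for comparison. Of 8 markers of B cells, all tested, 5 fell and 0 rose in the mutants within replicates 4 to 7 at an unadjusted p under 0.05, where 2534 of all 24908 genes fell and 3124 rose, with an average log2 signal of 1.81 against 2.28 in WT mice. Cd79b, the brightest of them, was lower (-0.47). Of 7 markers of plasma cells, 4 were higher and 0 lower, with an average of 2.16 against 1.84, and Jchain, the brightest, was higher by 0.60. Within replicates 1 to 3 the averages differed by 0.34 for B cells and -0.10 for plasma cells. On scan day 2 the average of 7 markers of T cells differed by -0.0054 (Cd3d, the brightest, by -0.03), of 7 markers of NK cells by 0.05 (Gzma 0.06) and of 10 markers of macrophages and monocytes by 0.07 (Ly6c2 0.31). In the other lists the brightest marker did not follow the average. Dendritic cells differed by 0.10 over 7 markers and by -0.28 in Siglech, neutrophils by 0.24 over 9 of 10 markers and by 0.02 in S100a9, and erythroid cells, although red cells had been lysed, by -0.29 over 9 of 10 markers and by 0.04 in Hba-a1. Within replicates 4 to 7, 0 markers of T cells and of NK cells passed, 2 of the 9 erythroid markers were lower, 2 of neutrophils were higher and 1 lower, 1 of macrophages and monocytes was higher, and 1 of dendritic cells was lower. Over all 14 arrays these erythroid markers were the only list of cell types with a call, with 2 of 9 lower and a median of -0.28. Of all 24908 genes, 403 were lower over these arrays at an unadjusted p under 0.05, and the median was 0.02. The part of these shifts in the values of Cgas and Samhd1 on scan day 2 was not tested.

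Other genes of the pathway were read from 6 lists. Each of the 6 had 0 or 1 passing gene over the 14 arrays, which is near the 3.54% of all genes that passed. Of 24 tested sensors of DNA and their partners, 0 passed an unadjusted p under 0.05, and the lowest p belonged to Lrrfip1 (log2 fold change 0.20, standard error 0.13), a nucleic acid binding protein, and Xrcc5 (0.15, standard error 0.11), the Ku80 subunit of the DNA end-binding complex. Of 24 cofactors and modifiers of cGAS 1 was lower and 0 higher. This was Senp7, a SUMO protease, at 0.19 ± 0.11 (SD, n = 7) in the mutants against 0.41 ± 0.14 (SD, n = 7) in the WT group. Its log2 fold change was -0.22 (standard error 0.09, unadjusted limma p = 0.0294, limma adjusted p = 0.999, exact permutation p = 0.00233, unadjusted). The exact test took no account of the scan day. The fold change was -0.04 within replicates 1 to 3 and -0.35 within replicates 4 to 7, where slide and genotype coincide. Its limma call was lost with a replicate block, under median centring, with either slide block (-0.06 fixed, -0.15 random) and when any one of 4 mice was left out (WT replicates 4, 5 and 6, Sting gt/gt replicate 6), although in those settings other than slide blocks the fold change stayed between -0.24 and -0.18.

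Of 42 genes for traffic and turnover of STING, 1 was lower, Usp49, a deubiquitinase, with a log2 fold change of -0.53 (standard error 0.24, exact permutation p = 0.0723). It was dim, at -4.36 on average in the mutants against -3.83 in WT mice, and fell to -0.10 under normexp. Its call was lost with a replicate block at the same fold change, with either slide block and with most single mice left out (-0.67 to -0.40 over all 14). Of 32 partners of TBK1 and IRF3, 0 passed, and the nearest were Mavs (-0.23, standard error 0.13), the mitochondrial adaptor of RNA sensing, and Dtx4 (0.22, standard error 0.13), an E3 ligase. Of 21 genes that clear nucleic acids, 1 was lower, Dnase1l2, a secreted DNase, at -1.63 ± 0.22 (SD, n = 7) in the mutants against -1.31 ± 0.14 (SD, n = 7) in the WT group. Its log2 fold change was -0.32 (standard error 0.11, limma adjusted p = 0.999, exact permutation p = 0.00758, unadjusted), with -0.06 on scan day 1 and -0.52 on scan day 2, where slide and genotype coincide. Its limma call was lost with slide as a fixed (-0.11) or random (-0.22) block, and the fold change was -0.20 under normexp. Of 14 genes for transfer and hydrolysis of cGAMP 0 passed, and the nearest were Slc46a1 (0.24, standard error 0.12, exact permutation p = 0.0460), a transporter, and Lrrc8a (-0.15, standard error 0.09), a subunit of volume-regulated anion channels. The medians of the 6 lists lay between -0.02 and 0.07, against 0.02 over all genes.

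Whether the genes followed interferon activity from mouse to mouse was asked with an index, the average of 24 interferon-stimulated genes, none of them among the 10. Deviations from the mean of the scan day were compared over the 14 mice. Ifi204 rose and fell with the index, with Pearson's r = 0.66 (permutation p = 0.0139 over 100000 permutations within days) and Spearman's rho = 0.58 (permutation p = 0.0384). It is itself induced by interferon. Of the 10 genes tried it was the 1 with a p under 0.05, where 1.7% of all genes outside the index had one. After adjustment over all genes 0% passed, so Ifi204 did not. Within days r was 0.79 over the 8 mice of scan day 2 (exact permutation p = 0.0201) and 0.45 over the 6 mice of scan day 1 (exact permutation p = 0.403), where rho was -0.03. With deviations taken from the mean of each genotype and day r was 0.70 (permutation p = 0.0103). That permutation ran within days and across genotypes, so it does not match these deviations and its p may be too small. In the genotype comparison 22 of the 24 index genes were lower in the mutants, with a median of -0.15. Of the 24, 2 were lower at an unadjusted p under 0.05. Of all 24908 genes 10997 were lower, 403 of them past that threshold, and the median was 0.02. The 24 genes were picked as a group and read in the same 14 mice, so their count is no test over independent genes. Mouse by mouse the index overlapped between the genotypes. Its extremes were 1.86 (replicate 5) and 2.54 (replicate 7) for WT, against 1.73 (replicate 6) and 2.28 (replicate 7) for Sting gt/gt. The highest values belonged to WT replicates 7, 3 and 1. The median of the index genes was -0.24 within replicates 1 to 3 and -0.07 within replicates 4 to 7, against 0.0028 and 0.04 over all genes.

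**Figure D4:**
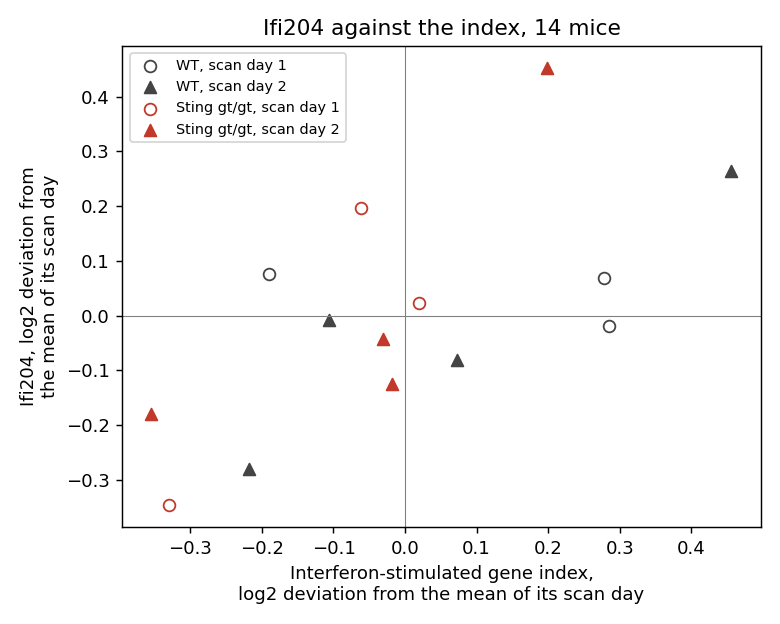
Ifi204 (y axis) against the interferon-stimulated gene index (x axis), both as log2 deviations from the mean of the scan day, in 14 mice. Grey and red mark WT and Sting gt/gt mice and open circles and triangles scan days 1 and 2, and over all mice Ifi204 rises with the index (r = 0.66).

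The other 9 genes had r between -0.10 and 0.29, with Trex1 (0.29) and Irf3 (0.26) the highest and permutation p-values from 0.332 to 0.929. Sting1 itself had r = -0.09 (permutation p = 0.775). These 14 mice may leave a moderate relation undetected, and 7 of them carry the allele, so no relation of Sting1 RNA to interferon-stimulated genes in WT mice can be read from this value.

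The 10 genes fell into loose sets by how they varied across mice within a scan day, given as a description with no test for 45 pairs. Tbk1 and Irf3 went together (r = 0.79, rho = 0.69, and 0.66 and 0.88 within the days), and Ddx41 followed Irf3 (r = 0.74, and 0.82 and 0.73) and Ikbke (r = 0.74, and 0.79 and 0.60). On scan day 1 WT replicate 2 was the lowest mouse in Ddx41, Irf3, Ikbke and Tbk1 and the highest in Samhd1. It lay -0.36, -0.25, -0.70, -0.21 and 0.35 from the mean of the day. Correlations among these genes on that day therefore lean on this mouse. On scan day 2 Sting gt/gt replicate 7 was the lowest in Ddx41 (-0.20), Irf3 (-0.25) and Ikbke (-0.34). That mouse was also low in Tbk1 (-0.23) and the highest in Samhd1 (0.29), so values of scan day 2 may lean on it. Ikbke went with Tbk1 and Irf3 mostly on scan day 1 (r = 0.93 and 0.84, against 0.20 and 0.37 on scan day 2). Sting1 and Trex1 went together (r = 0.62) while Tbk1 and Samhd1 went against each other (r = -0.71). Genotype and slide were left in these values, so the genotype differences of scan day 2 enter them. Such values are not rare on these arrays, since 1.41% of genes with a symbol correlated with Tbk1 as highly as Irf3 did, and 5.80% with Sting1 as highly as Trex1 did.

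**Figure D5:**
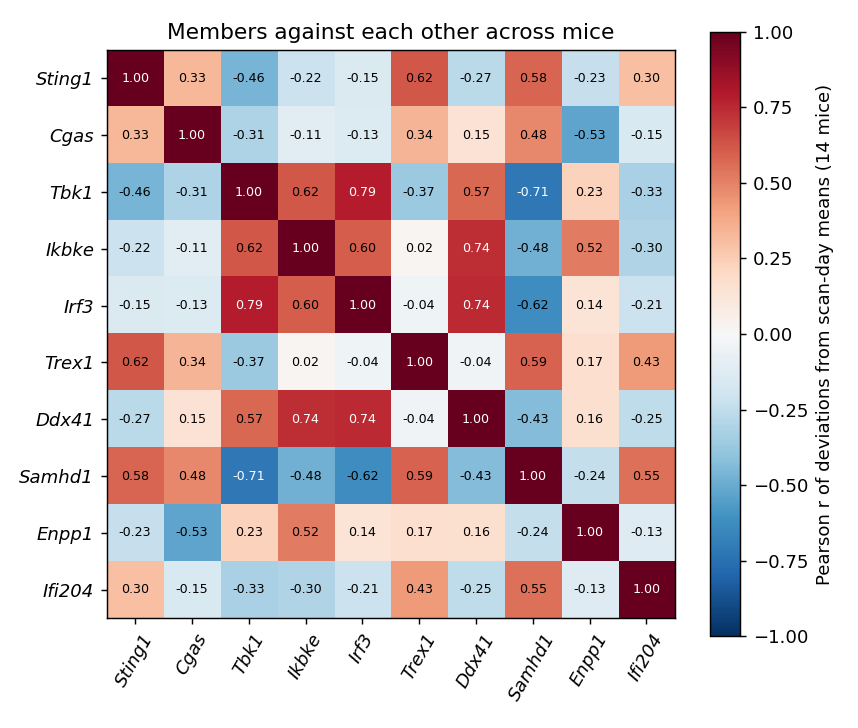
Pearson's r of deviations from scan-day means between each pair of the 10 genes (both axes) over 14 mice, from -1 (blue) to 1 (red). Tbk1, Ikbke, Irf3 and Ddx41 form a red block over all mice, and Tbk1 against Samhd1 is the lowest value at -0.71.

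Among the genes most like Sting1, of 14721 with a symbol, were Il4ra (r = 0.88 over 14 mice), a cytokine receptor chain, Litaf (0.88), Cd9 (0.86), a tetraspanin, and Lyst (0.86), a regulator of lysosomes. For Cgas they were Coa3 (0.95) and Mpdu1 (0.94), for Tbk1 Slc30a9 (0.93) and Coq5 (0.93), for Ikbke Ten1 (0.91) and Npl (0.91), and for Irf3 Dus3l (0.91) and Ppp1r12c (0.90). For Trex1 they were Tmem229b (0.90) and Cnpy3 (0.87), for Ddx41 Tceanc2 (0.91) and Oxld1 (0.90), for Samhd1 Mdn1 (0.96) and Pde4a (0.95), and for Enpp1 Zfp385a (0.91) and Slc45a3 (0.87). For Ifi204 they were Cd72 (0.90) and Gbp4 (0.90), the latter an interferon-induced GTPase. These are the highest of many values and carry no test.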

How the data were processed

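Splenocyte RNA of 7 WT and 7 Sting gt/gt mice was hybridised to 1 array each. The authors extracted the processed signal intensity with Agilent Feature Extraction 11.0.1.1, which corrects background and does not scale between arrays, and also deposited a log2 table of the same arrays, whose scaling is not given in the sources used here (r = 0.997 to 0.999 with the log2 intensity, column medians 5.49 to 5.52). Log2 intensity minus the 75th percentile of each array over probes was used. Outlier spots were dropped, and probes well above background on at least 7 arrays were tested (31766 of 56605). Between 30781 and 34400 probes were well above background per array. Probes were named through RefSeq accessions (32994 matched), and a gene was read from its brightest tested probe.

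Groups were compared with limma 3.58.1 (lmFit, eBayes) in R 4.3.3, with Benjamini-Hochberg adjustment over all genes, and by exact permutation in Python 3.11.15 with numpy 2.4.6, scipy 1.17.1, pandas 2.3.3 and matplotlib 3.10.9. Fits were tested on simulated data. The 10 genes and the lists were chosen with earlier results of these data known. Named genes were the 10, in each list those past the threshold (at most 5) or else the 2 with the lowest p, the 5 genes most like Sting1 (4 are printed) and 2 most like each other gene, and the brightest marker of each cell type.

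The 75th percentile was taken in 3 ways, and the version used was chosen after results of another had been seen. It was first taken over spots (868 genes past an unadjusted p under 0.05), then over probes on the log2 scale (881), which is used here because an earlier processing of these data took it so and the count came nearer to the earlier one, and then over probes on the linear scale (881), which was tried to come nearer to that earlier count and dropped. The correlations with the index had been planned with adjustment over the 10 genes and were adjusted over all genes instead. The NF-kB motif had not been planned and was searched at the same time as the other motifs. The lists hold 8 genes that the array does not name: Ifi203, Ifi206, Ifi207, Ifi211, Mnda, Usp27x, Steep1 and Rnaset2b.

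Both groups carry replicate numbers 1 to 7. Deviations of same-numbered arrays from their group means correlated at 0.16 to 0.53, above 0.1 in each pair, and a replicate block was therefore tried. The numbers follow the scan day, and with scan-day means removed the correlations ran from -0.41 to 0.25, so beyond the scan day the numbers were not seen to pair the mice. A replicate block gave 1406 genes in place of 881. In all, 17 alternatives were planned for the genotype, with leaving out single arrays as one of them. For normexp (offset 50) the median spot signal stood in for the mean signal.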

Additional observations from a re-analysis of the deposited data

Results flagged for a closer look

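The genotype difference of 3 of 16 probes differed between the blocks of replicates at an unadjusted limma p under 0.05, a share near the 18.4% of all genes that did. For probe 1 of Samhd1 the difference between replicates 4 to 7 and replicates 1 to 3 was 0.57 (exact permutation within days p = 0.00429, adjusted p over all probes 0.142 by limma). For the second probe of Cgas it was 0.69 (exact permutation p = 0.0729, adjusted p = 0.231), and for the second probe of Ddx41 it was -0.61 (exact permutation p = 0.0929, adjusted p = 0.261). By the exact test only Samhd1 among these 3 falls under 0.05. Probe 1 of Irf3 (-0.34) does so by the exact permutation test (p = 0.0271) and not by limma with the scaling used. The genotypes of scan day 2 lay on separate slides.

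In Ddx41 probe 1, Sting gt/gt replicate 7 lay apart from the other 6 Sting gt/gt mice, at -0.15, with a gap of 0.589 of the whole range, past the critical value for 7 samples. It was 1 of 32 groups looked at, and chance gives about 1 in 20.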

How the results depend on the processing

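The count of genes past an unadjusted p under 0.05 (881) was 1928 in the deposited log2 table, 4707 under array weights and a trend on intensity, 1804 with scan day as a term, 1406 with the replicate block and 439 where the slide was a random effect, and 494 to 1964 with single arrays left out. The higher and lower genes were 478 and 403, but 250 and 568 under median centring, 149 and 614 without scaling, 423 and 526 under quantile normalization and 945 and 983 in the table. Of the 10 genes 0 passed under each alternative except array weights with the trend, where 2 did, Cgas (0.28) and Samhd1 (0.23). There the 6 genes named from lists with no passing gene also passed, Lrrfip1 (0.30), Xrcc5 (0.23), Mavs (-0.31), Dtx4 (0.33), Slc46a1 (0.32) and Lrrc8a (-0.19). Slc46a1 passed as well with the t-test, with scan day as a term and without any one of 5 single arrays but was 0.0096 with fixed slides, and Lrrfip1, Mavs and Dtx4 passed without 1 or 2 single arrays. The replicate block changed no call among the 10, and Senp7 and Usp49 lost theirs. Their fold changes were unchanged by that block. Usp49 also did not pass with the t-test or the exact Mann-Whitney test. Senp7 also lost its call under median centring (-0.24) and without WT replicate 4, 5 or 6 or Sting gt/gt replicate 6 (-0.21 to -0.18), with fold changes about as large.

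The 75th percentile over probes was chosen, and the linear version tried, after results were seen. Over spots, the version used first, the count was 868, and 191 genes in place of 121 differed between the blocks, Ikbke passed within replicates 1 to 3 (0.52), Irf3 passed unadjusted for the difference between the blocks (-0.37), as it did in the deposited table (-0.49), Samhd1 lost its scan-day call (0.30) and Enpp1 was -0.0069 within replicates 4 to 7. On the linear scale the counts equalled those reported.

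Signs turned without scaling for Sting1 (-0.019) and Enpp1 (-0.037), with the mean of probes for Irf3 (0.011), and with array weights for Ifi204 (0.032). Fixed slide terms leave only the 5 arrays on mixed slides (3 WT and 2 Sting gt/gt), all of scan day 1, to set the difference, so scan day 2 adds nothing, and there signs turned for Sting1 (-0.10), Cgas (-0.069), Tbk1 (0.10), Irf3 (0.14), Trex1 (-0.10), Samhd1 (-0.30), Lrrfip1 (-0.070), Usp49 (0.026), Mavs (0.075) and Dtx4 (-0.14), and with random slides for Sting1 (-0.015), Irf3 (0.024) and Samhd1 (-0.11). Senp7, Usp49 and Dnase1l2 did not pass with either slide block. With single arrays left out Sting1 ran from -0.00070 to 0.080, Tbk1 from -0.24 to 0.066, Enpp1 from -0.019 to 0.075, Ifi204 from -0.12 to 0.095, Cgas from 0.090 to 0.21, Ikbke from 0.13 to 0.32, Irf3 from -0.11 to -0.012, Trex1 from 0.023 to 0.13, Ddx41 from 0.020 to 0.12 and Samhd1 from 0.025 to 0.18.

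In the deposited table, whose block and day values were added after the data were seen, 0 genes differed by scan day (9673 here), and the day values of Ikbke (-0.14), Trex1 (0.021) and Ddx41 (-0.041) turned sign, as did Sting1 within replicates 1 to 3 (0.0011), Ifi204 within replicates 4 to 7 (-0.026) and its difference between the blocks (-0.0074). Correlations with the index turned sign for Sting1 (0.092 and 0.062) and Cgas (-0.037 and -0.064) under quantile normalization and in the table, for Ikbke from genotype-by-block means (0.12), and for Tbk1 (-0.067) and Ddx41 (-0.048) without the 2 arrays farthest from the median of the index. These (WT replicates 3 and 7) were picked on the index and not its deviations, where Sting gt/gt replicates 6 and 1 lie farther out than WT replicate 3. Ifi204 passed unadjusted under each of these, with r from 0.67 to 0.70. Under normexp Ikbke was 0.16. Signal near background limits the third probe of Ddx41 and Usp49, which was -0.10 under normexp, lost its call without the filter on dim probes and was not well above background on all arrays.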
